A study of Homo sapiens with 2 samples.

Results

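The HOX-cluster miRNAs of the miR-10 and miR-196 families were described here in a pulldown of the long non-coding RNA SNHG15. Members were taken by name, and 3 of the 407 miRNAs in the count table met the rule: hsa-miR-10a-5p, hsa-miR-196a-5p and hsa-miR-196b-5p. A further miR-10 paralogue named by the rule was not analysed here. All material came from BT549, a breast cancer cell line of human origin, engineered to overexpress SNHG15 carrying MS2 hairpins, which are phage RNA loops bound by the MS2 coat protein (MCP). Lysate of these cells was put either on amylose resin loaded with MCP fused to maltose-binding protein (MBP), called the pulldown, or on amylose resin alone, called the control. Both groups share the SNHG15-MS2 overexpression, and each holds 1 library, so no difference given here has a replicate check. The MBP-MCP protein and the tagged SNHG15 it holds differ together between the resins and cannot be told apart. The libraries held 202560 and 111414 miRNA reads.

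miRNAs guide Argonaute proteins to messenger RNAs, mainly through the seed, bases 2 to 8 of the mature strand. The miR-10 and miR-196 genes lie inside the HOX clusters, whose transcription factors set position along the body axis, and are transcribed with the neighbouring HOX genes. miR-10 miRNAs are known for effects on HOX messenger RNAs and for a link to invasion in breast cancer, and miR-196 is known for cleaving the HOXB8 messenger RNA through nearly full pairing.

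The mature sequences, from RefSeq, are shown for the seeds they carry and for how close the miR-196 members are. In each, the capitals mark the seed.
hsa-miR-10a-5p: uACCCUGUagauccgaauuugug
hsa-miR-196a-5p: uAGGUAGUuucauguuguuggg
hsa-miR-196b-5p: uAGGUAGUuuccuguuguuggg
miR-196a-5p and miR-196b-5p share the seed AGGUAGU and differ by 1 substitution, A12C, with positions counted from 1 at the 5′ end and the base of miR-196a-5p given first. RefSeq sequences were matched for 321 of the 357 named miRNAs of the table. Among those, 0 others had the miR-10a-5p seed ACCCUGU, and miR-196a-5p shared its seed with miR-196b-5p only.

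Each family also has abundant miRNAs that share a run of bases with it, shifted by 1 base, and these served as a comparison. miR-100-5p, of the miR-99 and miR-100 family, shares a run of 11 bases with miR-10a-5p, in capitals here.
miR-10a-5p: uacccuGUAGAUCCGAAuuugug
miR-100-5p: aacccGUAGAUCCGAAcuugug
The run sits at bases 7 to 17 of miR-10a-5p and 6 to 16 of miR-100-5p, so the seeds of the pair differ (ACCCUGU and ACCCGUA). Of the 9 let-7 miRNAs (let-7 and miR-98), which LIN28 restrains, 8 hold the letters of the miR-196 seed 1 base further along, at bases 3 to 9. let-7e-5p, the exception, shares 6 of the 7. The rest of the sequence differs.
miR-196a-5p: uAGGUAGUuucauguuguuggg
let-7a-5p: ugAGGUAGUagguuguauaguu

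The members come from 3 HOX clusters, with positions from GENCODE 29 on GRCh38, the build named by the submitters' processing notes. MIR10A, chr17:48579838-48579947 on the minus strand, lies in the HOXB cluster. It falls in an exon of 1 annotated HOXB4 transcript and in introns of 6 HOXB3 transcripts, all on its own strand. miR-196a-5p has more than 1 gene: MIR196A1, chr17:48632490-48632559 on the minus strand, lies in an intron of a HOXB7 transcript, 6134 bases from HOXB9, and MIR196A2, chr12:53991738-53991847 on the plus strand, lies in an intron of a HOXC6 transcript between HOXC10 and HOXC9. Both give the same mature strand, so its reads cannot be split between HOXB and HOXC. MIR196B, chr7:27169480-27169563 on the minus strand, lies within HOXA9, in an exon of 1 transcript and introns of 2, and 1028 bases from HOXA10; HOXA10-AS overlaps it on the other strand.

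miR-10a-5p and miR-196a-5p made up a slightly larger share of the pulldown library than of the control library, and by almost the same factor. miR-10a-5p, the HOXB4-linked member, had 1306 reads in the pulldown and 571 in the control. These are 6447 and 5125 reads in each 1000000 miRNA reads of the library (RPM), a ratio of 1.26 (95% interval 1.14 to 1.39) and a log2 ratio of 0.33. miR-196a-5p, the HOXB8-directed member, had 629 and 284 reads. Its RPM was 3105 in the pulldown and 2549 in the control, a ratio of 1.22 (1.06 to 1.41) and a log2 ratio of 0.28. Both intervals lie above 1, and both ratios are far from 2-fold. Intervals of ratios and shares are exact (Clopper-Pearson). They reflect counting error alone, not the spread between cultures, pulldowns or library preparations. The library kit can mark single molecules, but the sources used here do not say whether such marks entered the counts.

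**Figure D1:**
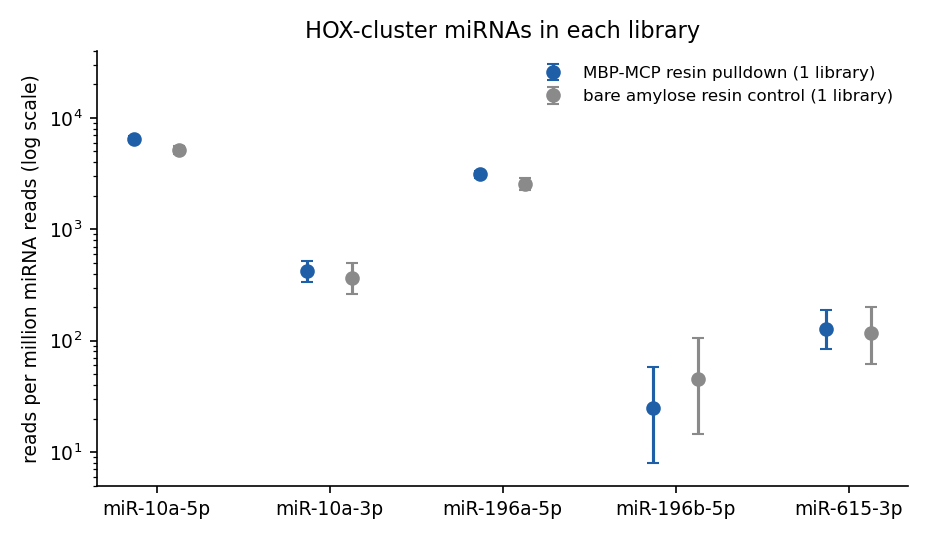
RPM (log axis) of 5 HOX-cluster miRNAs in the pulldown and the control, 1 library each; bars are exact 95% intervals of counting error. miR-10a-5p stands at 6447 and 5125 RPM and miR-196a-5p at 3105 and 2549, each higher in the pulldown, while miR-196b-5p has 5 reads in each library and bars that overlap.

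miR-196b-5p, the HOXA-derived member, was near the floor of both libraries. It had 5 reads in each, which is 24.7 RPM in the pulldown (8.01 to 57.6) and 44.9 RPM in the control (14.6 to 105). Its ratio of 0.550 has an interval from 0.127 to 2.39, so at this depth neither a difference nor the lack of one was detectable. Because miR-196a-5p and miR-196b-5p differ by 1 base and miR-196a-5p had 126 times as many reads in the pulldown and 56.8 times in the control, a few miR-196a-5p reads with an error could count as miR-196b-5p; this was not tested. The sources used here do not say how the authors assigned reads that fit more than 1 near-identical miRNA, which leaves the levels of miR-10a-5p and miR-196b-5p uncertain.

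The order of the members was the same in both libraries, with miR-10a-5p above miR-196a-5p and miR-196b-5p far below. No length term was needed, since the mature strands are 22 to 23 bases long. miR-10a-5p ranked 20 of 407 miRNAs by reads in the pulldown and 24 in the control, and miR-196a-5p ranked 34 and 37. In all, the 3 members held 0.958% of all reads in the pulldown and 0.772% in the control.

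The balance between the abundant members was the same on both resins within counting error. There were 2.08 reads of miR-10a-5p for each read of miR-196a-5p in the pulldown and 2.01 in the control. The first number over the second, a ratio of ratios, was 1.03 (exact conditional interval 0.867 to 1.23). This measure is free of how the libraries are scaled, because both miRNAs are counted in the same libraries. A difference between the 2 members of up to 1.23-fold cannot be told from none with these reads.

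Other products of the HOX clusters had too few reads to add a direction. Of 5 such miRNAs listed, 2 were in the table, miR-10a-3p and miR-615-3p, and 0 of these had an interval excluding 1. miR-10a-3p, the other arm of the MIR10A hairpin, had 85 and 41 reads, and its ratio of 1.14 had an interval of 0.777 to 1.70. miR-615-3p, made from an intron of HOXC5, had 26 and 13 reads, with its ratio at 1.10 (0.545 to 2.33). Their log2 ratios, 0.19 and 0.13, had the same sign as those of miR-10a-5p and miR-196a-5p, but the intervals reach well to either side of 1.

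The arms of MIR10A gave one more reading within each library. The 3p arm made up 6.11% of the hairpin's 1391 reads in the pulldown (4.91 to 7.50) and 6.70% of its 612 reads in the control (4.85 to 8.98). The intervals overlap almost fully, and the ratio of ratios of the arms was 1.10 (0.731 to 1.64). For scale, arms were paired by name, and 57 pairs had both arms in the table and at least 20 reads in each library. A mature strand can come from more than 1 hairpin, so a pair need not be a single hairpin. The median share of the minor arm was 4.23% in the pulldown and 5.00% in the control. MIR10A thus sat near the middle, with 24 pairs above it in the pulldown and 23 in the control.

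A ratio above 1 was not rare in these libraries, and the members are read against that background. Among the 161 miRNAs that reached 20 reads in at least 1 library, the interval lay above 1 for 11.2%, below 1 for 23.6%, and the ratio was at least 1.2-fold for 16.1%. By the rule of 2-fold, 2.48% were higher and 3.11% lower, and 0 of the 2 members with at least 20 reads were among either. Intervals narrow with reads, so the 51 miRNAs that reached 250 reads are the closer comparison: the interval lay above 1 for 25.5% of them and the ratio reached 1.2-fold for 15.7%. Of these 51, 3 had a larger ratio than miR-10a-5p and 6 a larger ratio than miR-196a-5p, miR-10a-5p itself among the latter. Of the 161, 20 had a larger log2 ratio than miR-10a-5p and 23 a larger one than miR-196a-5p. The median log2 ratio was −0.16 over the 161 and −0.06 over the 51.

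**Figure D2:**
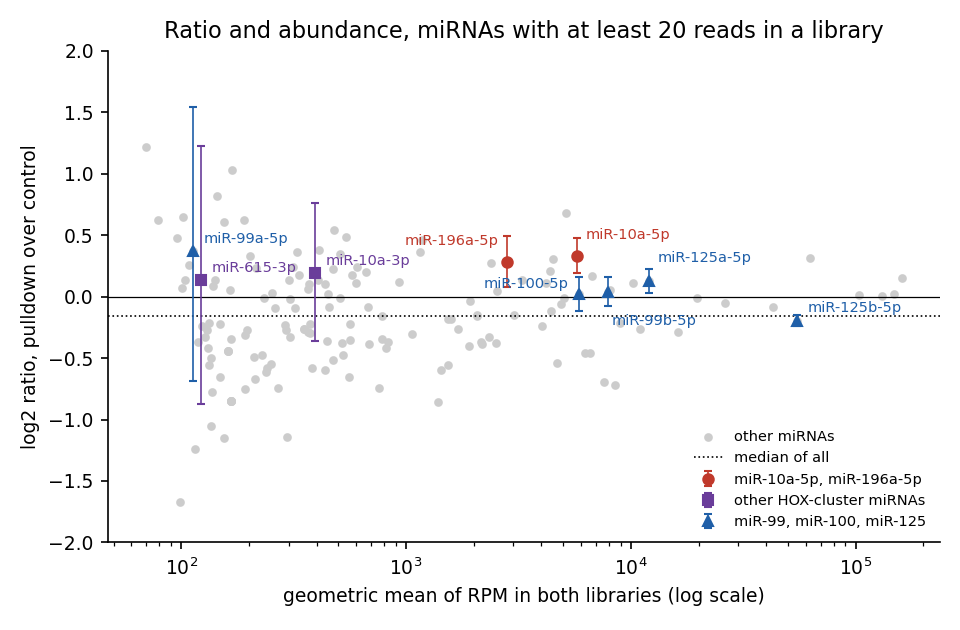
The log2 ratio of pulldown over control against the geometric mean of RPM in both libraries (log axis) for 159 miRNAs that reached 20 reads, leaving out 2 with 0 reads in the control; bars are 95% counting intervals of the labelled miRNAs and the dotted line is the median of all 161, −0.16. miR-10a-5p (0.33) and miR-196a-5p (0.28) lie above 0 with their whole bars, while miR-99b-5p and miR-100-5p, of abundance like that of miR-10a-5p, lie close to 0 by total reads; with TMM or DESeq2 factors their intervals lie above 0 too.

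The excess depends in size on how the libraries are scaled, but not in sign. With TMM factors the ratio of miR-10a-5p was 1.44 (1.30 to 1.59) and that of miR-196a-5p 1.39 (1.21 to 1.61). With DESeq2 size factors they were 1.52 (1.38 to 1.69) and 1.48 (1.28 to 1.70). A scaling moves all miRNAs by nearly the same amount: the median log2 ratio of all 161 moved by 0.19 (TMM) and by 0.28 (DESeq2). The distance of a member from that median, 0.49 for miR-10a-5p and 0.44 for miR-196a-5p on the log2 scale, is therefore fixed by construction and says nothing of stability. The background moved as well: the interval lay above 1 for 22.4% of miRNAs with TMM factors and for 27.3% with those of DESeq2. The ratios are of shares of a library, and how much RNA each resin held was not analysed here.

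**Figure D3:**
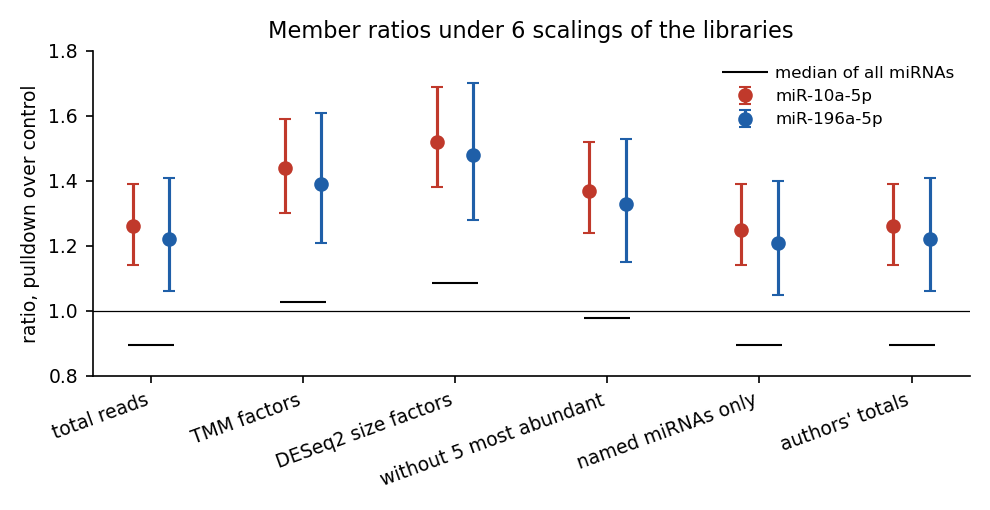
Ratio of pulldown over control for miR-10a-5p and miR-196a-5p under 6 scalings of the libraries, with 95% counting intervals; the black dashes are the median of all miRNAs that reached 20 reads. Both members lie above 1 under each scaling, from 1.25 to 1.52 for miR-10a-5p and from 1.21 to 1.48 for miR-196a-5p; the median moves with them by construction.

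The miRNAs of the miR-99, miR-100 and miR-125 families, evolutionary relatives of miR-10a-5p, had lower ratios than it in most cases. By total reads, their median log2 ratio was 0.04 over 5 members, with 1 interval above 1 and 1 below, beside −0.16 for all miRNAs. miR-100-5p, the closest in sequence, had 1202 and 652 reads, with its ratio at 1.01 (0.921 to 1.12). miR-99b-5p had 1622 and 868 reads, with its ratio at 1.03 (0.946 to 1.12). By total reads their intervals include 1, at read numbers close to those of miR-10a-5p, but this depends on the scaling. The log2 ratio of miR-100-5p became 0.22 (0.08 to 0.35) with TMM factors and 0.30 (0.16 to 0.44) with those of DESeq2, and that of miR-99b-5p 0.23 (0.11 to 0.36) and 0.32 (0.20 to 0.44). Of the 5 relatives, 3 then had an interval above 1 and 0 below with TMM factors, and 4 and 0 with those of DESeq2, with medians of 0.23 and 0.32 beside 0.04 and 0.12 for all miRNAs.

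Measured directly against them, which no scaling affects, miR-10a-5p had a larger pulldown-to-control ratio than 4 of 5 relatives by more than counting error. miR-10a-5p stood at 1.09 reads for each read of miR-100-5p in the pulldown and 0.876 in the control, a ratio of ratios of 1.24 (1.08 to 1.43). For miR-99b-5p the ratio of ratios was 1.22 (1.07 to 1.39). For the miR-125 members, which include the let-7-linked miR-125b-5p, it was 1.15 against miR-125a-5p (1.02 to 1.30) and 1.44 against miR-125b-5p (1.30 to 1.60). The exception was miR-99a-5p, with 26 and 11 reads, for which it was 0.968 with an interval of 0.428 to 2.04. In all, 19 such pairs were computed, and no interval was widened for their number. The 5 pairs with relatives all use the same miR-10a-5p reads, so they are not independent. Of the 51 miRNAs that reached 250 reads, 3 had a larger ratio than miR-10a-5p, so most miRNAs of that set lay below it too. How many did so by more than counting error was not counted, so the count of 4 does not set the relatives apart.

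miR-196a-5p was set against the let-7 miRNAs in the same way. The 9 pairs all use the same miR-196a-5p reads, so they are not independent. Of the 51 miRNAs that reached 250 reads, 6 had a larger ratio than miR-196a-5p, so most of that set lay below it too. It was not counted how many did so by more than counting error. The count that follows therefore does not set the let-7 miRNAs apart. Of the 9 ratios of ratios, 5 had an interval above 1 and 0 below. Against let-7a-5p, the most abundant, its interval ran from 1.04 to 1.39, and against let-7i-5p it was 1.21 (1.05 to 1.40). Against let-7b-5p, with a ratio of its own of 1.24 (1.21 to 1.28), it was 0.979 (0.847 to 1.13). The intervals against let-7d-5p, let-7e-5p and let-7g-5p also included 1. let-7g-5p had a ratio of its own of 1.16 (1.03 to 1.30). The excess of miR-196a-5p was therefore not beyond that of every let-7 miRNA, and by total reads the median log2 ratio of the 9 was 0.01, beside −0.16 for all miRNAs, or 0.21 beside 0.04 with TMM factors.

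**Figure D4:**
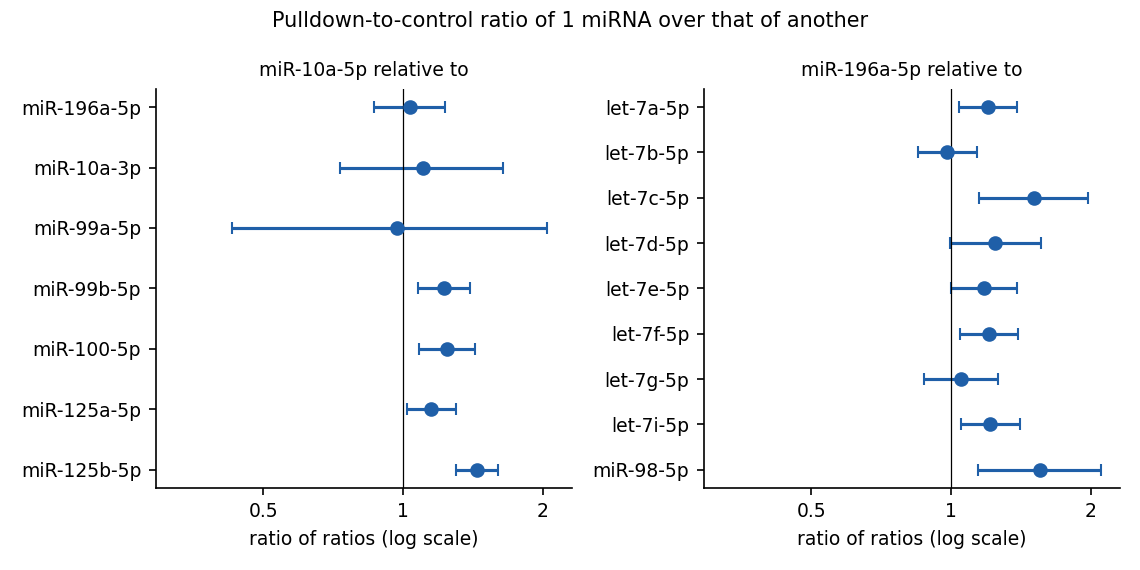
The pulldown-to-control ratio of miR-10a-5p (left) or miR-196a-5p (right) divided by that of the miRNA named on each line (log axis), with exact conditional 95% intervals; values above 1 mean the member has the larger ratio of the pair. miR-10a-5p and miR-196a-5p differ little from each other (1.03), while miR-10a-5p exceeds miR-99b-5p, miR-100-5p, miR-125a-5p and miR-125b-5p. miR-196a-5p exceeds let-7a-5p, let-7c-5p, let-7f-5p, let-7i-5p and miR-98-5p. Its intervals against let-7b-5p, let-7d-5p, let-7e-5p and let-7g-5p include 1.

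The miRNAs with levels most like the members were found by distance in the plane of log2 RPM over the 2 libraries. For miR-10a-5p the nearest were miR-100-5p (distance 0.226), miR-25-3p (0.336), miR-92a-3p (0.337) and miR-23a-3p (0.361). Their ratios ran from 0.990 for miR-23a-3p to 1.61 for miR-92a-3p. The distance takes in both libraries, so it also bounds how far these ratios can differ. For miR-196a-5p they were miR-30a-3p (0.264), miR-30a-5p (0.327), miR-101-3p (0.336) and miR-182-5p (0.344), and only miR-182-5p, at 1.21 (1.03 to 1.41), had an interval above 1. For miR-196b-5p the nearest, miR-1271-5p and miR-33a-5p, had the same 5 reads in each library, followed by miR-17-3p (0.241) and miR-625-5p (0.341), which says little at so few reads.

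The sequence of SNHG15 was searched for seed matches of the members, as a description of letters and not of binding. The target of the miR-10a-5p seed is ACAGGGT, and that of the miR-196 seed is ACTACCT. Both were searched on the transcript strand alone in the 10 SNHG15 transcripts of GENCODE 29, and 0 of the 10 held either. The 6-base form of the miR-10a-5p target, CAGGGT, was in 1 of the 10, and that of miR-196, CTACCT, in 0. SNHG15-203 held neither of these 6-base forms. For scale, 8.04% of 945 lincRNA transcripts of a length within 10% of the 982 bases of SNHG15-203 held ACAGGGT and 4.87% held ACTACCT. The 6-base forms were in more of them, 23.9% for CAGGGT and 22.3% for CTACCT. Of all 321 matched miRNAs, 18.4% had a 7-base match in at least 1 of the 10 SNHG15 transcripts, and 5.61% in SNHG15-203. A 6-base match in SNHG15-203 was found for 19.0% of them. The sources used here do not name the isoform in the construct.

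Pairing along the whole miRNA gave no stand-out value either. The most stable duplex that RNAduplex found with SNHG15-203 had an energy of −17.7 kcal/mol for miR-10a-5p, −22.4 for miR-196a-5p and −20.8 for miR-196b-5p, where the median of 321 miRNAs was −20.0 and more negative is more stable. A more stable duplex was found for 70.1% of those miRNAs than for miR-10a-5p, and for 29.9% than for miR-196a-5p. By energy, miR-10a-5p lay on the less stable side of the median and miR-196a-5p on the more stable side. Whether pairing bears on the ratios was not tested.

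Of the 3 members, 0 are called different in the authors' deposited table, where 6.39% of all 407 miRNAs are. That call covers 26 miRNAs, whereas 11 have an adjusted p below 0.05, so it is not a rule of adjusted p below 0.05. The authors' deposited table gives miR-10a-5p a log2 fold change of 0.33 (p = 0.0158, adjusted p = 0.280). In the authors' deposited table miR-196a-5p has 0.28 (p = 0.0387, adjusted p = 0.450). For miR-196b-5p the authors' deposited table has a log2 fold change of −0.86, p = 0.760 and an adjusted p of 1.0. These fold changes are ratios by total reads, whereas the p-values rest on TMM factors, under which the log2 ratio of miR-10a-5p was 0.53 and that of miR-196a-5p 0.48. The p-values also rest on an assumed spread, since with 1 library a group none can be measured: edgeR's exact test with TMM factors and a coefficient of variation of 0.1 returned them to within 9.86e-14 in log10 p.

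The cell line was checked against miRNA markers in the same libraries. All 7 listed miRNAs of mesenchymal or basal breast lines were present, among them miR-221-3p with 1014 and 451 reads and miR-138-5p with 40 and 33. By total reads, 3 of the 7 had a log2 ratio above 0 and 4 below. Of 7 epithelial markers, 2 were in the table, miR-200a-3p and miR-203a-3p, each with 1 read in each library. Leukocyte markers had 14 and 12 reads in all, and erythroid markers 135 and 65, nearly all of them miR-486-5p. Of the other lists, miR-143-3p of smooth muscle and fibroblasts had 90 and 78 reads, the liver miRNA miR-122-5p 4 and 0, and the muscle miRNA miR-1-3p 9 and 1. Their part in the result was not tested.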

How the data were processed

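Small RNA held on MBP-MCP resin or on bare amylose resin was sequenced from BT549 cells, 1 library each, after mirVana extraction and QIAseq miRNA library preparation, per the labels' protocols. The authors deposited raw read counts of 407 miRNAs, of which 357 are named and 50 predicted, with RPM values under the header Tpm, a log2 fold change, p-values and adjusted p-values, per the file headers. The authors' RPM values divide by totals 69 and 39 reads above the sums of the deposited count columns (202560 and 111414). Genome build GRCh38 comes from the submitters' processing notes. The sources used here do not name the aligner or the miRNA annotation, nor say how molecular identifiers were treated. There were 0 columns of other samples.

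RPM and its ratio were computed from the counts with the sum of each column as total. A prior count of 0.5, in proportion to library size, was added before taking log2 ratios. Intervals are exact 95% Clopper-Pearson intervals, and ratios of ratios are conditional odds ratios (scipy 1.17.1). Since each group has 1 library, the resins were compared without a p-value, and a rule of 2-fold was applied to miRNAs that reached 20 reads. Alternatives were TMM factors (edgeR 4.0.16), DESeq2 1.42.0 size factors, other totals, a prior count of 5, and other minimums and folds. Named miRNAs were the members, the HOX-cluster, miR-99/100/125, let-7 and cell marker lists, and the 4 nearest to each member; the larger minimum of 250 reads, the arm shares and the RNAduplex 2.7.2 energies were added later. Members and lists were chosen with earlier results of these data known. The interval and the rule of size were tried on simulated counts that held counting error alone, which the interval assumes. Intervals covered the set ratio in 95.9% of cases, which says nothing of spread between libraries. The rule of size picked 1.88% of unchanged miRNAs and 49.4% of those set to differ 2-fold. Predicted miRNAs held 1.56% and 1.93% of reads.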

Additional observations from a re-analysis of the deposited data

How the results depend on the processing

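miR-10a-5p and miR-196a-5p kept a log2 ratio above 0, with the whole interval, under each of the 6 scalings. The log2 ratio of miR-10a-5p moved from 0.33 to 0.53 (TMM factors) and 0.61 (DESeq2 size factors). That of miR-196a-5p moved from 0.28 to 0.56 under the latter. Intervals of miR-99b-5p and miR-100-5p, which include 1 by total reads, lay above 1 with TMM factors, DESeq2 size factors and totals without the 5 most abundant miRNAs. The log2 ratio of miR-125b-5p turned from −0.20 to 0.08 with DESeq2 size factors. The median of all miRNAs moved from −0.16 to 0.04 (TMM), 0.12 (DESeq2) and −0.03 (totals without the 5 most abundant miRNAs). Intervals above 1, 18 by total reads, became 36, 44 and 28 under those scalings, and intervals below 1, 38 by total reads, became 15, 12 and 21. miRNAs at least 2-fold higher, 4 at first, numbered 18 with a minimum of 10 reads, 0 with 50 and 79 with none, and those at least 2-fold lower, 5 at first, numbered 21, 0 and 80; with TMM or DESeq2 factors 2 were lower. With a fold of 1.5 there were 10 higher and 24 lower, and with 1.2 there were 26 and 67. Adding 0.5 reads to each cell left all ratios of ratios tried inside their intervals. These shifts come from the scalings, minimums and folds themselves. No paired analysis was possible because each group has 1 library, and for the same reason no library could be left out. Depth limits miR-196b-5p, with 5 reads in each library, and miR-615-3p.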
